A study of Homo sapiens with 40 samples.

Results

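The messenger RNAs of the mitochondrial ribosomal proteins were followed through all 40 libraries of the study. They were taken as the counted gene symbols made of MRPL or MRPS, a number and at most 1 further letter, a rule that uses no measured value. This gave 76 members of 55765 counted symbols, 47 MRPL genes (named for the large mitochondrial ribosomal subunit) and 29 MRPS genes (named for the small subunit), which lie on 21 chromosomes.

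Mitochondria keep a ribosome of their own, which translates the few mRNAs of the mitochondrial genome into core subunits of the respiratory chain and the ATP synthase. Its ribosomal RNAs are transcribed inside the organelle, whereas its proteins are encoded in the nucleus, translated on cytosolic ribosomes and imported. Many of these proteins descend from bacterial ribosomal proteins (MRPL3, MRPL12, MRPS12) and others occur only in mitochondria (MRPL39, MRPS22, MRPS31). The symbols follow the subunit with few exceptions: the proteins of MRPS18A and MRPS30 sit in the large subunit, and the MRPS36 protein is a component of the 2-oxoglutarate dehydrogenase complex.

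All libraries came from HEK293 cells, a line derived from human embryonic kidney, so the values describe a single cultured line. In the RNA immunoprecipitation (RIP) experiment, cells gave total RNA and the RNA that came down with an antibody to endogenous eIF4A1, eIF4A2 or DDX6, all DEAD-box RNA helicases (an IP), and each of these 4 groups has 3 libraries. A knockdown of CNOT1, the scaffold protein of the Ccr4-Not deadenylase complex, by siRNA was set beside a control siRNA in sucrose gradients, where fractions 1 to 5 were pooled as subpolysomal and fractions 6 to 11 as polysomal RNA beside the unfractionated input, giving 6 groups of 4 libraries. A last experiment measured total RNA after joint siRNA knockdown of TNRC6A and TNRC6B, adaptors between Argonaute proteins and Ccr4-Not, or after control siRNA, with 2 libraries each. An IP with a control antibody was not analysed here, so an IP is described only against total RNA and against the other IPs. The labels do not say whether replicates came from separate cultures, and p-values then measure only the spread between these libraries.

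CPM, the count scaled to a common library size by TMM, is a relative level, and in bulk RNA fewer cells with an mRNA and less of it per cell cannot be told apart. The libraries held between 15353317 and 46018900 counts, of which the members took 0.347% to 0.72%. All 7 HEK293 markers examined were detected in every library, from PAX2 (0.0984 to 1.57 CPM) to NEFM, and of 10 markers of blood, liver, red, fibroblast and endothelial cells 9 stayed at or below 1.12 CPM, the other being COL1A1 (1.14 to 18.1 CPM). CNOT1 itself was at 687, 711, 662 and 628 CPM in the control siRNA inputs and at 41.4, 36.8, 39.9 and 40.4 CPM in the CNOT1 siRNA inputs, and subpolysomal RNA gave 310.5, 317, 256 and 235 against 89.6, 82.8, 73.5 and 77.4 CPM. In polysomal RNA the 2 libraries numbered 3 went against their labels: CNOT1 was at 28.3 CPM in the library labelled control siRNA (the other 3 were at 469.9, 501 and 479) and at 631 CPM in the library labelled CNOT1 siRNA (the others at 29.05, 24.01 and 31.6). Counts of called members in the gradient experiment are therefore given with and without these 2 libraries, and other values that use polysomal RNA include both libraries unless stated. In the TNRC6 experiment TNRC6A was at 178 and 189 CPM with control and 40.5 and 64.7 CPM with TNRC6A/B siRNA, and TNRC6B at 67.6 and 73.1 and 17.7 and 26.3 CPM.

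The members share short mRNAs. In GENCODE transcripts on GRCh37 (hg19), the 5′UTR of the 75 members with enough counts to be tested had a median of 30 nt (145 nt over the 13329 tested genes with transcript features), the coding sequence (CDS) a median of 591 nt (1434 nt over all) and the 3′UTR a median of 464 nt (1348 nt over all). The median 5′UTR was 39 nt long for MRPL and 22 nt for MRPS genes, and the median CDS 588 and 591 nt. Among members with a 5′UTR long enough to score (51 of them), the median GC content was 63.8% (67.5% over 12735 genes). The median density of purine tetramers in these members was 1.72 per 100 nt (1.68 over all). Only the purine-rich tetramers listed in the paper were counted, and not every run of 4 bases of A or G. The start codon lay in a TISU element, a motif of genes with very short 5′UTRs, in 9 of the 75 members (12%), 4 of 46 MRPL and 5 of 29 MRPS genes, against 148 tested genes in all (1.11%). A match to this motif is a description of the sequence and not evidence of its use.

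The start contexts of 8 of these 9 members follow, because a very short leader that ends in this motif is a sequence feature shared by part of the members and by few other genes. Each runs 12 nt upstream of the start codon, the start codon in capitals and the next 9 nt, from the GRCh37 genome, 5′ to 3′ on the sense strand. The leader of MRPL38 is shorter than this window, and its context is not shown.
MRPL1: ggagtgcccaacATGgcggcggcc
MRPL9: gtgcctgtgaacATGgcggcgccc
MRPL50: atctcatcgaagATGgcggcgcga
MRPS10: gggaccggcaagATGgcggcgcgg
MRPS14: gtagcggacaacATGgcggccttc
MRPS18A: aggtttttgaagATGgcggccctc
MRPS18B: gcgtacgtcaagATGgcggcgtct
MRPS24: gcttggcccaagATGgcggcctcc
The genes lie at chr4:78783984-78873939 on the plus strand (MRPL1), chr1:151732123-151735972 on the minus strand (MRPL9), chr9:104149915-104160900, minus (MRPL50), chr6:42174545-42185599, minus (MRPS10), chr1:174979925-174992561, minus (MRPS14), chr6:43638939-43655528, minus (MRPS18A), chr6:30585617-30594172, plus (MRPS18B) and chr7:43906157-43909492, minus (MRPS24). All 8 windows span the end of the 5′UTR and the first codons, and are exonic. MRPS10 and MRPS18A have leaders of only 12 nt, so that their windows begin at the annotated transcript start.

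The annotation also limits what a count can mean for some members. Exons of 18 members overlap exons of another annotated gene on the same strand (MRPS24 and the readthrough gene URGCP-MRPS24, MRPL53 and CCDC142, MRPL33 and BABAM2, MRPS6 and SLC5A3 among them), exons of 30 overlap a gene on the other strand, and 32 members have pseudogene copies with a counted symbol of their own, 66 symbols in all. These overlaps are those of the GENCODE annotation used here, which need not match the gene annotation behind the deposited counts. Some of these neighbours may therefore have been absent from the counting. The strand setting of the counting is not given in the sources used here, so values of these members may hold or lack reads of their neighbours. MRPL30 was the single member that was not tested, with 0.132, 0.0912 and 0.179 CPM in the RIP total RNA libraries, and its exons overlap those of 2 other genes.

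Per kilobase of exon, the members of RIP total RNA spanned a wide range. MRPS34 led at 131 ± 31.1 CPM per kb (SD, n = 3), followed by MRPL18 at 115 ± 14.8, MRPL3 at 105 ± 17.5, MRPS21 at 96.7 ± 18.2 and MRPL51 at 84.1 ± 14.1 CPM per kb, and neighbours in this order differed by less than the larger of their SDs. MRPS34 is a mitochondria-specific small subunit protein, and the MRPL3 protein lies near the peptidyl transferase centre. The lowest tested members were MRPS24 at 0.49 ± 0.06, MRPL46 at 2.25 ± 0.09, MRPL38 at 2.58 ± 0.29 and MRPS22 at 3.87 ± 0.34 CPM per kb. The first 3 of these share exons with another gene on the same strand. The median was 29.1 CPM per kb over MRPL and 23.4 over MRPS genes. The order depends on the length used: by the length of the representative (MANE) transcript, MRPS22 moved from rank 72 to rank 38 of 76, and 3 of the 5 highest members were shared between the orders.

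**Figure D1:**
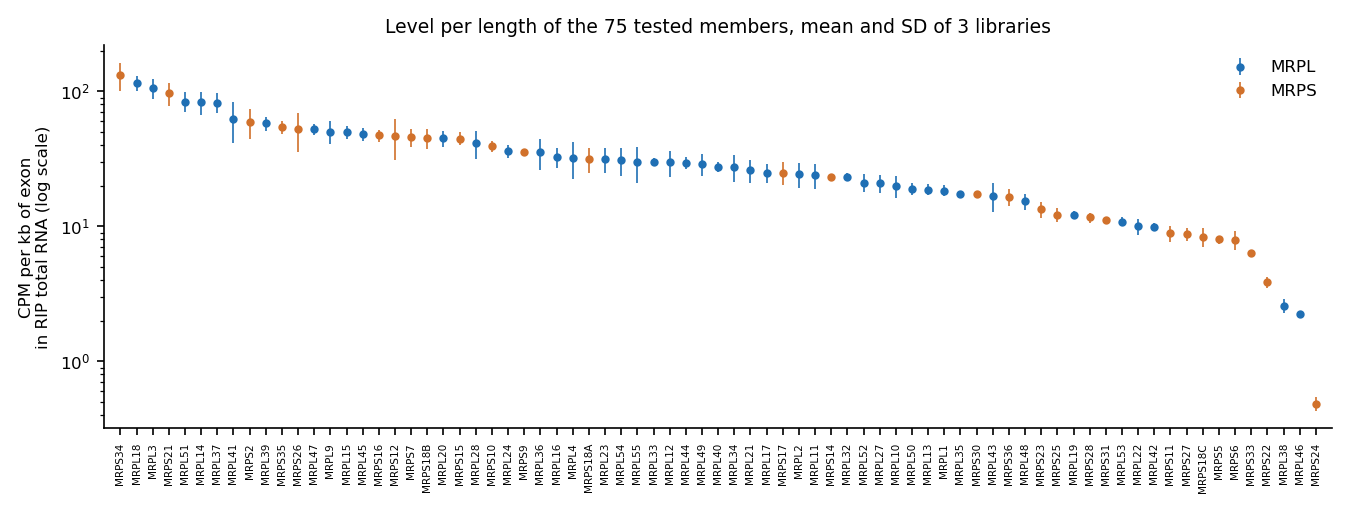
Level of the 75 tested members in RIP total RNA, in CPM per kb of exon on a log axis, ordered from high to low and coloured by MRPL and MRPS; points are means and bars SDs of 3 libraries. Levels ran from 131 CPM per kb for MRPS34 to 0.49 for MRPS24, and MRPL and MRPS genes were interleaved along the whole order.

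To ask how much of each mRNA came down with each helicase, the IPs were compared with RIP total RNA. Most members were lower in the eIF4A1 and eIF4A2 IPs than in total RNA, and fewer were lower in the DDX6 IP. In the eIF4A1 IP, 45 of the 75 members fell and 4 rose, where 26.5% of all 17474 genes tested were called lower and 26.1% higher. In the eIF4A2 IP 56 fell and 2 rose (25.8% and 24.5% of all genes), and in the DDX6 IP 28 fell and 6 rose (23.3% and 22.7% of all genes). The median log2 fold change of the members was -0.70 in the eIF4A1 IP (interquartile range -1.15 to -0.24), -1.005 in the eIF4A2 IP and -0.31 in the DDX6 IP, beside medians of 0.04, 0.01 and 0.01 over all genes. Calls are from edgeR's quasi-likelihood test at a Benjamini-Hochberg adjusted p below 0.05 over all genes.

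Same-numbered RIP libraries deviated together, and a fit with the replicate number as a block called more members in each IP. It gave 54 lower and 6 higher in the eIF4A1 IP (32% and 32.4% of all genes), 63 lower and 4 higher in the eIF4A2 IP (31.9% and 30.4%), and 39 lower and 11 higher in the DDX6 IP (30.4% and 29.6%). In the DDX6 IP the count of called members also rested on single libraries, falling from 34 to 22 without RIP total RNA replicate 2 (39.2% of all genes called, against 46% with it), and its median was -0.50 without DDX6 IP replicate 2 and -0.18 without replicate 3. All 3 comparisons use the same 3 total RNA libraries, so they are not independent of each other.

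**Figure D2:**
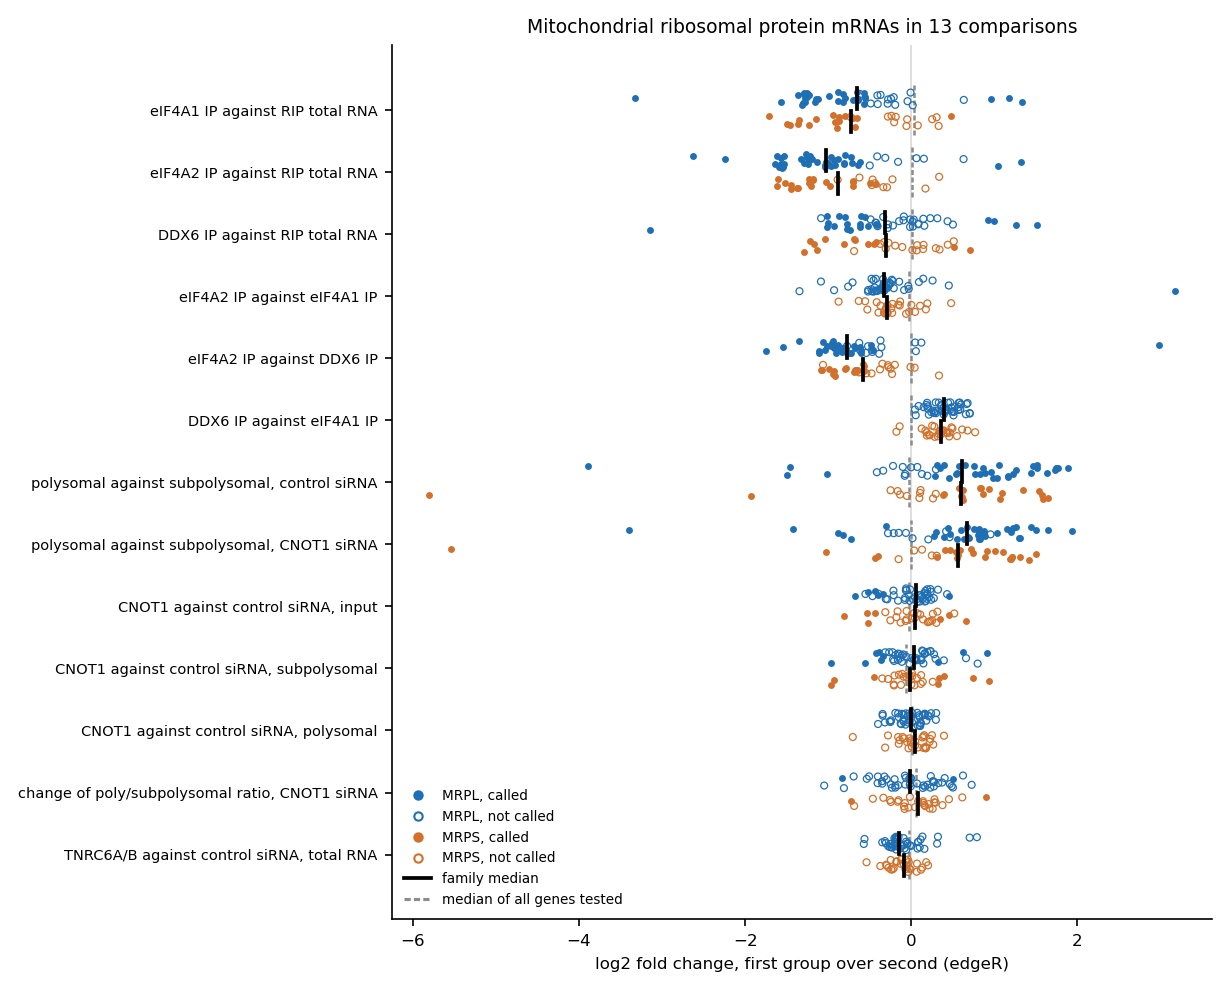
Log2 fold change of each of the 75 members (first group over second, edgeR) in the 13 comparisons, with MRPL and MRPS genes in separate colours; filled points are called members, open points are not called, black lines are the medians of MRPL and of MRPS genes and grey dashes are medians of all genes tested. The members sit left of the grey dashes in the eIF4A1 and eIF4A2 IPs (medians of all members -0.70 and -1.005) and right of them in polysomal over subpolysomal RNA (medians 0.59 and 0.63).

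Among members at 10 CPM or more, MRPS22, MRPL39, MRPS30, MRPS31 and MRPL19 had the lowest fold changes in the eIF4A1 IP. MRPS22, a small subunit protein, was at 62.1, 69.5 and 58.5 CPM in total RNA, 16.6, 22.5 and 19.00 in the eIF4A1 IP, 20.2, 20.8 and 21.6 in the eIF4A2 IP and 25.1, 31.2 and 25.05 CPM in the DDX6 IP. No IP library reached the lowest total RNA library, and the DDX6 IP libraries lay above those of both eIF4A IPs. Its log2 fold changes were -1.71 ± 0.15, adjusted p = 2.1e-06, -1.60 ± 0.15, adjusted p = 2.5e-06 and -1.22 ± 0.14, adjusted p = 3.8e-05 for eIF4A1, eIF4A2 and DDX6. MRPS30, which despite its symbol sits in the large subunit, was at 104, 114 and 105 CPM in total RNA and at 39.7, 37.99 and 36.9, at 45.2, 36.5 and 36.6 and at 50.2, 46.7 and 46.1 CPM in the 3 IPs in the same order. The 9 IP libraries of MRPS30 lay close together and far below total RNA, with log2 fold changes of -1.49 ± 0.12, -1.45 ± 0.12 and -1.17 ± 0.12. MRPS31, another mitochondria-specific protein, had log2 fold changes of -1.46 ± 0.15 in the eIF4A1 IP and -1.29 ± 0.15 in the DDX6 IP, and MRPL39 had -1.57 ± 0.15 in the eIF4A1 IP and -1.61 ± 0.15 in the eIF4A2 IP.

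Other members had their lowest fold changes in the eIF4A2 IP. MRPL12, a stalk protein that also binds the mitochondrial RNA polymerase, was at 29.7, 36.8 and 23.5 CPM in total RNA, 11.6, 22.5 and 2.75 in the eIF4A1 IP, 6.04, 5.39 and 3.18 in the eIF4A2 IP and 15.3, 15.4 and 11.7 CPM in the DDX6 IP. The eIF4A2 IP libraries lay below all total RNA and DDX6 IP libraries, and the eIF4A1 IP libraries, all below total RNA, reached from below the lowest eIF4A2 IP library to above the highest DDX6 IP library. The log2 fold change was -2.63 ± 0.52, adjusted p = 0.00095 for eIF4A2 and -1.29 ± 0.49, adjusted p = 0.041 for eIF4A1, and the latter call was lost in 6 of 11 alternatives. MRPL12 shares exons with another gene on the same strand. MRPL54, a mitochondria-specific protein of the large subunit, was at 33.5, 35.8 and 22.1 CPM in total RNA, 10.7, 18.8 and 11.5 in the eIF4A1 IP, 6.68, 8.12 and 4.58 in the eIF4A2 IP and 20.1, 29.7 and 15.4 CPM in the DDX6 IP. Its eIF4A2 IP libraries were the lowest of the 12, and its DDX6 IP libraries overlapped total RNA (-2.24 ± 0.31, adjusted p = 5.5e-05 for eIF4A2). MRPL3 went from 289.5, 332 and 237 CPM in total RNA to 101, 146 and 107 in the eIF4A1 IP, 94.4, 102 and 78.4 in the eIF4A2 IP and 149, 183 and 138 CPM in the DDX6 IP. Its total RNA libraries lay above every IP library, and its log2 fold changes were -1.28 ± 0.19, -1.65 ± 0.19 and -0.87 ± 0.18.

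The few members that rose in an IP have short CDSs. MRPL33, with the shortest CDS of all members (198 nt), was at 42.2, 47.5 and 47.7 CPM in total RNA, 94.8, 147 and 104 in the eIF4A1 IP, 87.4, 117 and 79.5 in the eIF4A2 IP and 101, 179 and 113 CPM in the DDX6 IP. Every IP library lay above every total RNA library, with log2 fold changes of 1.33 ± 0.23, adjusted p = 0.00034, 1.05 ± 0.23, adjusted p = 0.0019 and 1.52 ± 0.23, adjusted p = 0.00021. MRPL53 was likewise higher in all 3 IPs (1.18 ± 0.16, 1.32 ± 0.16 and 1.26 ± 0.16 on the log2 scale), and both genes overlap a gene on the same strand. MRPL34, a member of a bacterial family, rose in the eIF4A1 IP (0.96 ± 0.25, adjusted p = 0.0066) and the DDX6 IP (1.000 ± 0.25, adjusted p = 0.0061), from 43.6, 50.5 and 31.6 CPM in total RNA to 79.6, 111 and 53.4 and 73.7, 106 and 72.3 CPM. Every library of these 2 IPs lay above every total RNA library of MRPL34, whose exons overlap those of ABHD8 on the other strand. MRPS21 rose in the eIF4A1 IP (0.47 ± 0.19, adjusted p = 0.048), a call lost in 7 of 11 alternatives, and MRPL14, MRPS36 and MRPS16 rose in the DDX6 IP (0.93 ± 0.29, 0.71 ± 0.25 and 0.52 ± 0.15).

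**Figure D3:**
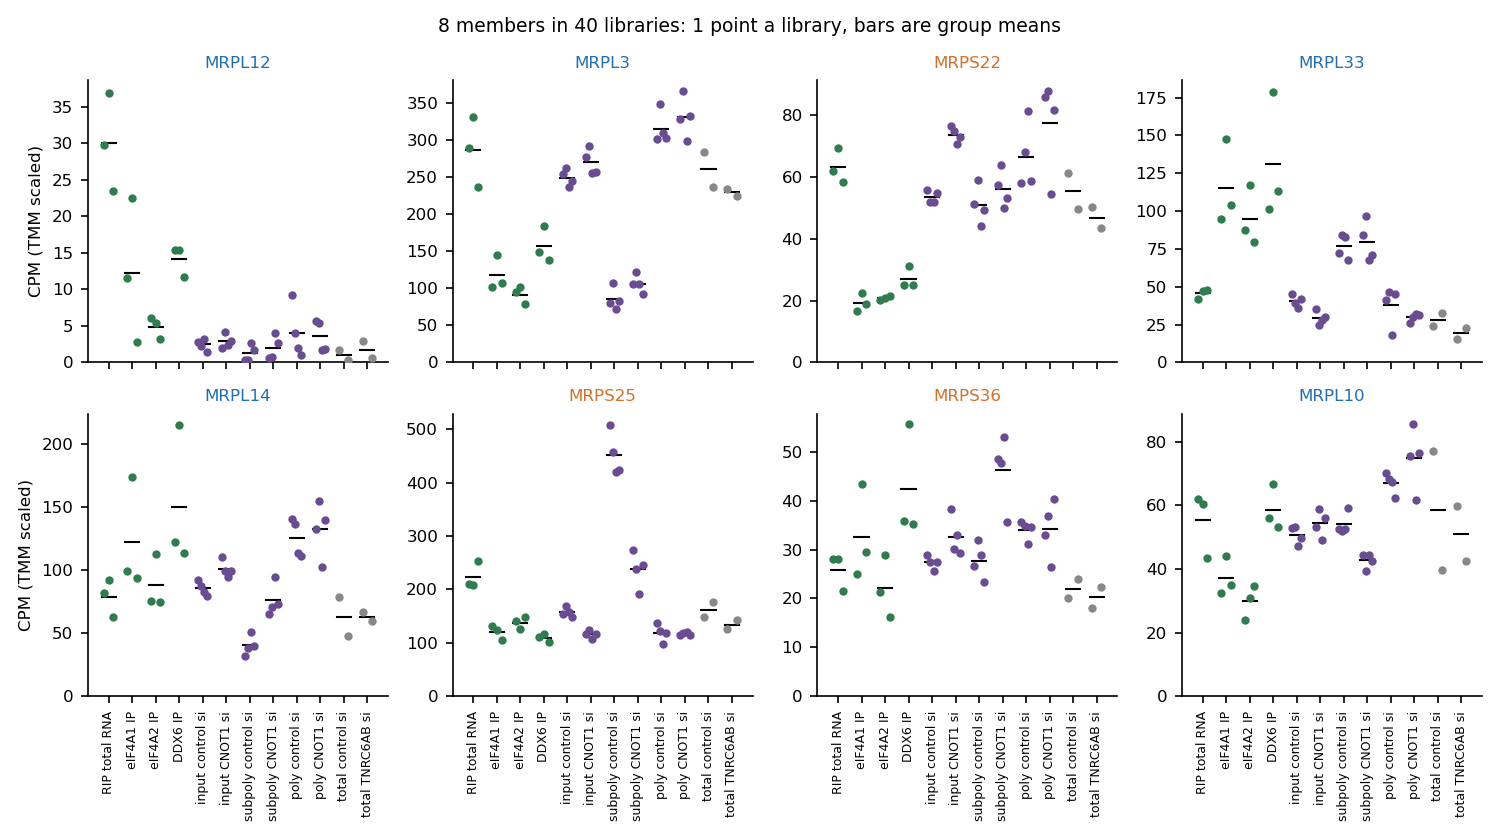
CPM (TMM-scaled counts) of 8 members in the 40 libraries, grouped by the 12 groups; each point is a library and each bar a group mean, and every axis starts at 0. Within the RIP experiment MRPL3 and MRPS22 were highest in total RNA and MRPL33 was higher in the IPs, and MRPS25 was highest in subpolysomal RNA of control siRNA cells.

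Across the members, the fold change in an IP ran with the length of the coding sequence. Spearman's rho between CDS length and log2 fold change over the 75 members was -0.74 in the eIF4A1 IP, -0.59 in the eIF4A2 IP and -0.73 in the DDX6 IP, and over the 13191 tested genes with features it was -0.17, 0.01 and -0.27. Over the 58 members without same-strand overlap it was -0.72, -0.62 and -0.71. Members share their libraries and are not replicates, so these values are descriptive. In the eIF4A1 IP, the median log2 fold change was -0.19 for the 25 members with the shortest CDSs (198 to 480 nt), -0.66 for the next 25 (501 to 756 nt) and -1.25 for the 25 longest (771 to 1320 nt). Other tested genes within the same length limits had medians of 0.32, 0.15 and 0.03 (882, 1418 and 3384 genes). The corresponding members' medians were -0.47, -0.96 and -1.38 in the eIF4A2 IP (other genes -0.06, -0.10 and -0.09), and 0.14, -0.28 and -0.78 in the DDX6 IP (other genes 0.50, 0.28 and 0.04).

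Calls divided in the same way. Of the 25 shortest members 5 were called lower and 4 higher in the eIF4A1 IP, and of the 25 longest 24 lower and 0 higher. Over all genes 26.5% were called lower and 26.1% higher. In the eIF4A2 IP 11 of the shortest were lower and 2 higher, and 24 of the longest lower and 0 higher (25.8% and 24.5% of all genes). In the DDX6 IP 1 of the shortest was lower and 6 higher, and 21 of the longest lower and 0 higher (23.3% and 22.7% of all genes). Shares called among other genes of these lengths are not given here.

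**Figure D4:**
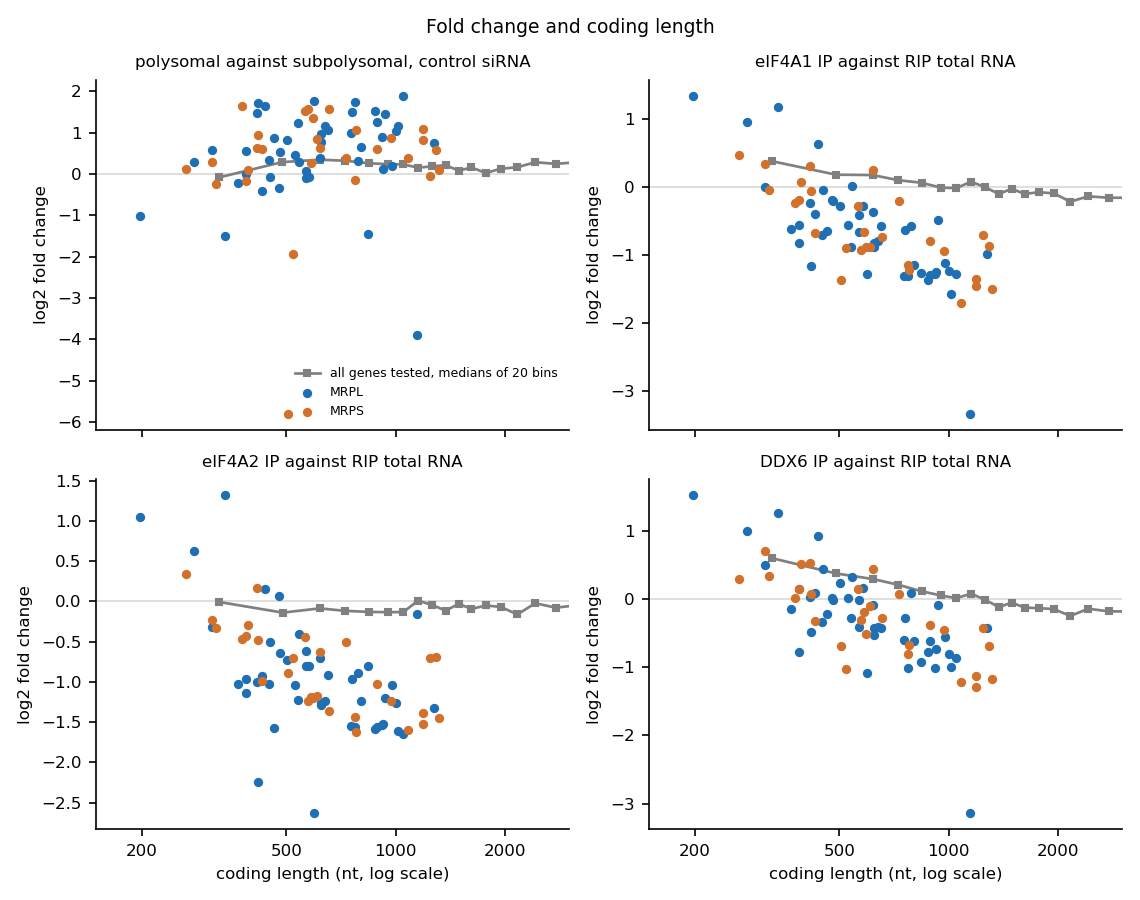
Log2 fold change (vertical axis) against CDS length in nt (log axis) for the 75 members, coloured by MRPL and MRPS, in the IP and gradient comparisons named above each panel; grey squares are medians of all tested genes in 20 bins of length. In the eIF4A1 IP the members fall from a median of -0.19 among the 25 shortest to -1.25 among the 25 longest, away from the grey line.

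The IPs were also compared directly. Against the DDX6 IP, 45 members were lower and 1 higher in the eIF4A2 IP (11.3% lower and 9.82% higher over all genes), with a median of -0.68 (all genes 0.00). With the replicate block 65 were lower and 2 higher (22% and 18.5% of all genes). Without DDX6 IP replicate 2 the count of lower members was 20 (4.15% of all genes lower), and without eIF4A2 IP replicate 1 or replicate 3 it was 22 each (4.07% and 6.7%). The largest decreases were those of MRPL54 (-1.75 ± 0.30, adjusted p = 0.0033), MRPL12 (-1.55 ± 0.51, adjusted p = 0.046) and MRPL23, which lines the exit of the nascent peptide tunnel (-1.35 ± 0.27, adjusted p = 0.0059). MRPL51 (-1.11 ± 0.21), MRPL4 (-1.11 ± 0.32) and MRPS34 (-1.09 ± 0.35) followed. The call of MRPL12 was lost in 6, that of MRPS34 in 5 and that of MRPL4 in 4 of 11 alternatives. The exception was MRPL38, which was at 4.86, 4.30 and 13.8 CPM in the eIF4A2 IP, 0.928, 0.968 and 1.03 in the DDX6 IP, 1.02, 0.816 and 0.719 in the eIF4A1 IP and 8.53, 7.72 and 9.66 CPM in total RNA. The eIF4A2 IP libraries of MRPL38 overlapped total RNA and lay above both other IPs (2.98 ± 0.39, adjusted p = 0.0018 against DDX6), and MRPL38 shares exons with neighbours on both strands.

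Between the 2 eIF4A paralogues, few members differed in the fit without a block. MRPL38 rose in the eIF4A2 IP over the eIF4A1 IP (3.17 ± 0.39, adjusted p = 0.0034), and 0 members fell (0.973% of all genes were called higher and 0.0858% lower). An unadjusted p below 0.05 was reached by 14 members, a threshold at which the share of all genes is not given here. With the replicate block, 23 members were lower and 1 higher (8.7% and 7.12% of all genes), led by MRPL12 (-1.16 ± 0.36), MRPL54 (-1.09 ± 0.14), MRPS26 (-0.94 ± 0.16) and MRPL23 (-0.92 ± 0.10), and DESeq2 called 3 members in all (4.01% of all genes). The median of the members was -0.30 (all genes -0.02), and it was -0.10 without eIF4A1 IP replicate 2.

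For the DDX6 IP against the eIF4A1 IP, 73 of 75 members had a positive log2 fold change and the median was 0.39 (all genes -0.01). By edgeR's quasi-likelihood test 0 members were called (0.0801% of all genes higher and 0.0114% lower), and DESeq2 called 12 higher (2.05% of all genes higher). In edgeR's test 28 members had an unadjusted p below 0.05. Shares of all genes at that unadjusted threshold, or with a positive value, are not given here. With the block 36 members rose and 0 fell (6.08% and 3.82% of all genes), with MRPS10 (0.77 ± 0.10), MRPL51 (0.71 ± 0.13) and MRPL47 (0.70 ± 0.11) in the lead. The median ranged from 0.19 without DDX6 IP replicate 2 to 0.64 without eIF4A1 IP replicate 2.

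Both subunits took part in these decreases. Among MRPL and MRPS genes in turn, 28 of 46 and 17 of 29 were lower in the eIF4A1 IP (medians -0.65 and -0.73), 37 and 19 in the eIF4A2 IP (-1.03 and -0.89), and 17 and 11 in the DDX6 IP (-0.31 and -0.31). For eIF4A2 against DDX6, 31 MRPL and 14 MRPS genes were lower (-0.78 and -0.59), and the difference of the medians was -0.13, -0.20 and -0.14 in the replicate numbers 1, 2 and 3. Sorting by the subunit where the protein sits, 30 of 48 large and 15 of 26 small subunit mRNAs were lower in the eIF4A1 IP, and 39 and 17 in the eIF4A2 IP. Genes with a bacterial homologue (47) and mitochondria-specific genes (28) had medians of -0.66 and -0.84 in the eIF4A1 IP and -0.98 and -1.02 in the eIF4A2 IP.

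Members chosen for their place in the ribosome spread across this range. Around the stalk, MRPL12 is described above, and MRPL10, its anchor, had log2 fold changes of -0.57 ± 0.18 in the eIF4A1 IP, -0.89 ± 0.18 in the eIF4A2 IP and 0.08 ± 0.18 in the DDX6 IP, the last not called. MRPL11, of the stalk base, was called in the eIF4A2 IP alone of these 3 (-0.80 ± 0.25), and MRPL1, of the separate L1 stalk, in all 3 (-1.12 ± 0.19, -1.03 ± 0.19 and -0.56 ± 0.18). MRPL45, which anchors the ribosome to the inner membrane, fell in all 3 (-1.25 ± 0.14, -1.53 ± 0.14 and -0.74 ± 0.14). Of the 3 paralogues of the MRPS18 family, MRPS18B had the lowest value in the eIF4A2 IP (-1.62 ± 0.15), followed by MRPS18A (-1.21 ± 0.19) and MRPS18C (-0.98 ± 0.22). MRPS12, a decoding-centre protein, was not called in any of the 3 (-0.06 ± 0.31, -0.48 ± 0.31 and 0.07 ± 0.31), and MRPS7 was called in the eIF4A2 IP alone (-0.50 ± 0.19).

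To ask where the mRNAs stood in translation, polysomal was compared with subpolysomal RNA. Most members were higher in polysomal RNA under both siRNAs. With control siRNA 49 of 75 members rose and 6 fell (34.8% and 37% of the 16776 genes tested), with a median of 0.59 beside -0.02 over all genes. With CNOT1 siRNA 51 rose and 10 fell (34.1% and 34.7% of all genes), with a median of 0.63 beside -0.01. Without the 2 polysomal libraries that went against their labels, the counts were 53 and 6 with control siRNA (33.7% and 38.4% of all genes) and 55 and 11 with CNOT1 siRNA (36% and 35.9%). Pooled fractions give the share of an mRNA on polysomes relative to other mRNAs, not the number of ribosomes on it.

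MRPL3 had the largest increase among well-measured members with control siRNA. It was at 79.9, 107, 71.4 and 82.8 CPM in subpolysomal and 301, 349, 309 and 303 CPM in polysomal RNA, and with CNOT1 siRNA at 106, 122, 105 and 91.98 and 329, 366, 299 and 333 CPM. Subpolysomal and polysomal libraries did not overlap under either siRNA (1.89 ± 0.11, adjusted p = 3.7e-13 and 1.64 ± 0.11, adjusted p = 6.3e-12, and 1.91 ± 0.11 and 1.70 ± 0.11 without the doubtful libraries). MRPL28 went from 20.4, 21.2, 41.3 and 33.5 to 136, 107, 69.6 and 74.3 CPM with control siRNA (1.74 ± 0.22, adjusted p = 2.1e-07). MRPL54 (1.73 ± 0.23), MRPS6 (1.65 ± 0.12), MRPL14 (1.64 ± 0.14) and MRPS34 (1.58 ± 0.24) had increases of like size with control siRNA, and MRPS23 (1.502 ± 0.10), MRPL16 (1.502 ± 0.10) and MRPL19 (1.44 ± 0.13) with CNOT1 siRNA. MRPL12 was at 0.349, 0.363, 2.70 and 1.63 CPM in subpolysomal and 9.22, 4.06, 1.97 and 0.989 CPM in polysomal RNA of control siRNA cells, so that its groups overlapped and its call (1.76 ± 0.67, adjusted p = 0.022) was lost in 4 of 15 alternatives. Without the doubtful libraries all these members were called in the same direction, MRPL12 at 2.03 ± 0.68 and MRPL28 at 1.88 ± 0.22.

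A small set of members was higher in subpolysomal RNA. With control siRNA all 6 of them share exons with another gene on the same strand in the GENCODE annotation used here. Whether these neighbours were in the annotation behind the counts was not checked. MRPS25, a mitochondria-specific small subunit protein, was at 508, 457, 419 and 424 CPM in subpolysomal and 136, 121, 98.3 and 119 CPM in polysomal RNA with control siRNA, and at 275, 239, 192 and 246 and 114, 118, 121 and 115 CPM with CNOT1 siRNA. The groups did not overlap (-1.93 ± 0.11, adjusted p = 1.5e-13 and -1.02 ± 0.11, adjusted p = 9e-09, and -1.84 ± 0.10 and -1.03 ± 0.10 without the doubtful libraries). MRPL33 was at 72.2, 84.1, 83.00 and 67.6 CPM in subpolysomal and 41.3, 46.6, 18.1 and 45.5 CPM in polysomal RNA with control siRNA (-1.02 ± 0.19, adjusted p = 4.8e-05), and fell with CNOT1 siRNA too (-1.42 ± 0.19, adjusted p = 6.7e-07). MRPL38 (-3.89 ± 0.19), MRPL53 (-1.50 ± 0.21) and MRPL46 (-1.46 ± 0.17) fell with control siRNA. MRPS24 was at 4.57, 4.45, 3.71 and 4.60 CPM in subpolysomal RNA and at 0.0386, 0.138, 0.0403 and 0.0860 CPM in polysomal RNA, a handful of counts a library, and is given without a fold change. Among the 58 members without same-strand overlap 41 rose and 0 fell with control siRNA (median 0.62), and among the 17 with it 8 rose and 6 fell (median 0.10). Over all genes 34.8% rose and 37% fell with control siRNA, and 34.1% and 34.7% with CNOT1 siRNA. With CNOT1 siRNA the 58 gave 44 and 2, the 2 being MRPS36 (-0.44 ± 0.13, adjusted p = 0.0057) and MRPS33 (-0.40 ± 0.15, adjusted p = 0.018). Without the doubtful libraries the 58 gave 45 higher and 0 lower with control siRNA (median 0.71), the 17 gave 8 and 6 (median 0.23), and with CNOT1 siRNA the 58 gave 47 and 3. Shares of all genes were then 33.7% higher and 38.4% lower with control siRNA, and 36% and 35.9% with CNOT1 siRNA. The part of neighbouring genes in these values was not tested.

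Between polysomal and subpolysomal libraries of the same number, the median log2 ratio of the members minus that of all genes was 0.615 ± 0.137 (SD, n = 4, range 0.467 to 0.733) with control siRNA and 0.598 ± 0.165 with CNOT1 siRNA. The labels do not tie these libraries to each other. Their deviations did not pair them by number, but the group means used included the doubtful libraries, so this check cannot decide the pairing. The SD rests on a matching by number alone, and no test was made of it. Without the libraries numbered 3 it was 0.665 ± 0.116 and 0.679 ± 0.0402 (n = 3). For MRPL genes it was 0.651 ± 0.188 and for MRPS genes 0.533 ± 0.116 with control siRNA, a difference of 0.118 ± 0.176. CDS length ran weakly with this ratio with control siRNA (rho 0.25 over 75 members, 0.05 over all genes) and more with CNOT1 siRNA (0.49 and 0.12), and without the doubtful libraries rho over the members was 0.18 and 0.48. The 25 shortest members had a median log2 fold change of 0.30 with control siRNA, the next 25 of 0.82 and the 25 longest of 0.76, where other genes of these lengths had 0.03, 0.34 and 0.20 (898, 1430 and 3430 genes). Without the doubtful libraries the members' medians were 0.38, 0.90 and 0.75 (other genes 0.13, 0.34 and 0.14).

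**Figure D5:**
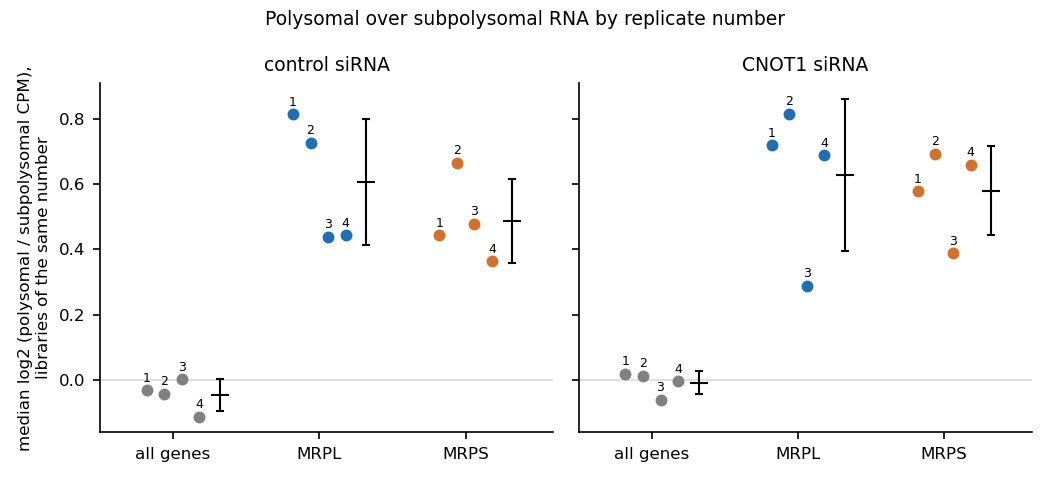
Median log2 ratio of polysomal to subpolysomal CPM between libraries of the same replicate number, for all genes tested, MRPL and MRPS; each point is 1 of 4 numbers per siRNA, matched by number alone, and the bars beside the points are the mean and SD of 4. MRPL and MRPS lay above all genes at each of the 8 points, and the points numbered 3 use the polysomal libraries that went against their labels.

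With CNOT1 siRNA, single members changed in input RNA in both directions while their median stayed near 0. In input RNA 4 members rose and 9 fell (13.4% and 15.6% of all genes), with a median of 0.04 (all genes -0.03). With the replicate number as a block 4 rose and 10 fell (14.5% and 17.3% of all genes). Without the 2 doubtful polysomal libraries, which enter the shared estimate of the spread, 10 rose and 15 fell (19.6% and 21.1% of all genes). A fit of the 8 input libraries alone, which estimates the spread from them, called 27 higher and 17 lower (30.9% and 30% of 15686 genes). MRPS22 was at 55.9, 51.9, 52.1 and 54.8 CPM with control and 76.4, 74.8, 70.9 and 72.9 CPM with CNOT1 siRNA (0.46 ± 0.13, adjusted p = 0.015), and MRPL44, an RNase III-like protein of the large subunit, at 50.2, 49.7, 46.6 and 49.7 and 69.5, 67.4, 66.4 and 64.4 CPM (0.45 ± 0.13, adjusted p = 0.016). For both, every CNOT1 siRNA library lay above every control library. MRPS2 (0.66 ± 0.23, adjusted p = 0.034) and MRPS9 (0.35 ± 0.12, adjusted p = 0.032), both of bacterial families, were the other members that rose, and each of these calls was lost in 8 of 15 alternatives.

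Among members that fell in input RNA, MRPS21 was at 141, 133, 131 and 137 CPM with control and 97.8, 90.5, 89.97 and 96.02 CPM with CNOT1 siRNA (-0.53 ± 0.14, adjusted p = 0.010). MRPS10 was at 80.4, 83.6, 79.6 and 85.2 and 54.6, 63.5, 53.2 and 56.98 CPM (-0.53 ± 0.17, adjusted p = 0.022). MRPL51 was at 145, 140.0, 127 and 135 and 105, 105, 89.1 and 107 CPM (-0.43 ± 0.14, adjusted p = 0.026). In these 3 genes the groups did not overlap. MRPL11 (-0.52 ± 0.16, adjusted p = 0.022) and MRPS25 (-0.44 ± 0.11, adjusted p = 0.0078) fell as well. The count of called members ranged from 4 to 10 with single libraries left out (4 without CNOT1 siRNA replicate 3, 6 without control siRNA replicate 1 or replicate 2, 8 without control siRNA replicate 4 or CNOT1 siRNA replicate 1), where 17.2% to 20.7% of all genes were called.

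In subpolysomal RNA 8 members rose and 9 fell with CNOT1 siRNA (13% and 19.1% of all genes), with a median of 0.00 (all genes -0.07), and without the doubtful libraries 13 rose and 12 fell (17.7% and 24.3%). MRPL14, which forms a bridge to the small subunit, was at 32.3, 38.6, 50.9 and 40.1 CPM with control and 65.4, 71.3, 95.00 and 73.3 CPM with CNOT1 siRNA (0.91 ± 0.14, adjusted p = 4.2e-05). MRPS36 was at 26.6, 31.97, 28.96 and 23.4 and 48.6, 47.7, 53.05 and 35.7 CPM (0.74 ± 0.13, adjusted p = 0.00028), and MRPS12 at 22.9, 23.3, 36.05 and 30.1 and 49.1, 41.5, 70.8 and 53.6 CPM (0.94 ± 0.22, adjusted p = 0.0022). In all 3 the CNOT1 siRNA libraries lay above the control libraries. MRPS25 showed the opposite, with all CNOT1 siRNA libraries below all control libraries (-0.93 ± 0.11, adjusted p = 1.6e-06, values above). MRPL53 (-0.97 ± 0.20, adjusted p = 0.00097) and MRPL10 (-0.34 ± 0.10, adjusted p = 0.010) fell too, while MRPL54 (0.63 ± 0.22, adjusted p = 0.035) and MRPL3 (0.32 ± 0.11, adjusted p = 0.029) rose. Leaving out single libraries gave 9 to 19 called members, with 9 without CNOT1 siRNA replicate 3 and 10 without control siRNA replicate 1 (25.9% and 25.5% of all genes called, against 32.2% with all libraries).

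In polysomal RNA 0 members were called, by edgeR's quasi-likelihood test or by DESeq2, and 1 (MRPL44, named after its value was seen) had an unadjusted p below 0.05. No gene at all was called (0% higher and 0% lower). Without the 2 libraries that went against their labels, 10 members rose and 10 fell (17.1% and 14.6% of all genes). Leaving out only the library labelled control siRNA 3 gave 8 called members (16.6% of all genes called), and leaving out only that labelled CNOT1 siRNA 3 gave 1 (3.51%). Without both, those with the largest changes were MRPS2 (0.74 ± 0.19), MRPS30 (0.54 ± 0.12), MRPL44 (0.53 ± 0.10) and MRPS22 (0.47 ± 0.10) upwards and MRPL53 (-0.78 ± 0.17), MRPL23 (-0.65 ± 0.21), MRPL33 (-0.61 ± 0.14) and MRPS10 (-0.61 ± 0.14) downwards. MRPS22 was at 58.1, 67.98, 81.3 and 58.9 CPM in the libraries labelled control siRNA 1 to 4 and at 85.97, 87.9, 54.4 and 81.8 CPM in those labelled CNOT1 siRNA. The library labelled control siRNA 3 lay close to the other CNOT1 siRNA values, and the library labelled CNOT1 siRNA 3 below all values labelled control.

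The change of the polysomal to subpolysomal ratio with CNOT1 siRNA was tested as an interaction. In it 2 members rose and 2 fell (3.26% and 2.4% of all genes), with a median of -0.01 (all genes 0.05), and without the doubtful libraries 10 rose and 10 fell (9.99% and 7.51%). MRPS25 rose (0.90 ± 0.15, adjusted p = 0.00092), with lower subpolysomal values and polysomal values, given above, between 98.3 and 136 CPM. MRPL10 rose (0.50 ± 0.14, adjusted p = 0.032), from subpolysomal 52.6, 52.1, 52.5 and 59.04 to 44.5, 39.5, 44.4 and 42.5 CPM beside polysomal 70.1, 68.3, 67.3 and 62.2 and 75.6, 85.7, 61.8 and 76.3 CPM, a call lost in 10 of 23 alternatives. MRPL14 fell (-0.84 ± 0.20, adjusted p = 0.012), with polysomal values of 141, 137, 114 and 111 and 133, 155, 103 and 139.6 CPM that overlapped between the siRNAs. MRPS36 fell (-0.73 ± 0.19, adjusted p = 0.023), with polysomal values of 35.6, 34.9, 31.04 and 34.6 and 32.9, 36.9, 26.5 and 40.4 CPM that overlapped too. All 4 were also called without the doubtful libraries, at 0.81 ± 0.14, 0.58 ± 0.12, -0.78 ± 0.18 and -0.67 ± 0.18. The count of called members, 4 with all libraries (5.66% of all genes called), was 13 without the polysomal library labelled control siRNA 3 (11.9%), 8 without subpolysomal control siRNA replicate 3 (6.07%), 7 without the polysomal library labelled CNOT1 siRNA 3 (6.14%) and 2 without subpolysomal control siRNA replicate 4 (4.5%).

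With siRNAs against TNRC6A and TNRC6B, 0 members were called by edgeR's quasi-likelihood test or DESeq2, 0 had an unadjusted p below 0.05, and no gene was called in either direction (0% of 14064). The median was -0.12 (all genes -0.03), and 58 of the 75 members had a negative value, while without control siRNA replicate 1 the median was 0.02. The fit with the replicate number as a block called MRPL17 higher and MRPL33 lower (3.7% and 1.73% of all genes). With 2 libraries in each group, log2 fold changes of the members ran from -0.57 for MRPL38 to 0.79 for MRPL12, and MRPL12 was at 1.65 and 0.312 CPM in the control libraries alone.

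Summed over genes, MRPL (47 genes) lay above MRPS (29 genes) in every group, and the ratio of the 2 sums differed between groups. The sums add unequal numbers of genes, so a larger MRPL sum says nothing of the level per gene. The summed CPM of MRPL genes was 3555 ± 522 in RIP total RNA, 2419 ± 595 in the eIF4A1 IP, 1887 ± 255 in the eIF4A2 IP and 3205 ± 690 in the DDX6 IP (SD, n = 3). The ratio of the MRPL to the MRPS sum was 1.44 ± 0.05 in total RNA, 1.39 ± 0.08 in the eIF4A1 IP, 1.26 ± 0.05 in the eIF4A2 IP and 1.54 ± 0.05 in the DDX6 IP. By this ratio every eIF4A2 IP library lay below every total RNA library, and every DDX6 IP library lay above them. Without MRPS25 the eIF4A2 IP libraries still lay below total RNA, and the DDX6 IP libraries overlapped it. In input RNA it was 1.42 ± 0.01 with control and 1.35 ± 0.02 with CNOT1 siRNA (n = 4), in polysomal RNA 1.48 ± 0.09 and 1.42 ± 0.04 (1.52 ± 0.01 and 1.40 ± 0.01 without the libraries numbered 3, n = 3), and in the TNRC6 experiment 1.38 ± 0.01 and 1.37 ± 0.02 (n = 2). In subpolysomal RNA it was 1.16 ± 0.04 with control and 1.35 ± 0.03 with CNOT1 siRNA, and without MRPS25 the 2 values were 1.46 ± 0.03 and 1.53 ± 0.03.

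Single members varied more than these sums. Over the RIP groups, the ratio of a member's highest to its lowest group mean had a median of 2.18 and ran from 1.19 for MRPL50 to 10.1 for MRPL38. Total RNA was the highest group for 49 members, the DDX6 IP for 23, and the eIF4A2 IP the lowest group for 59. Over the gradient groups the median ratio was 1.87, with MRPL18 the least variable at 1.27, and the highest group was polysomal for 56 of the 75 members (33 with CNOT1 and 23 with control siRNA). Without the doubtful libraries it was polysomal for 60, and the median ratio was 2.04.

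Other genes of mitochondrial translation and the cytosolic ribosome give these counts a context. Mitoribosomal proteins with other symbols (7 genes) gave 0 higher and 3 lower in the eIF4A1 IP, 0 and 3 in the eIF4A2 IP, 2 and 1 in the DDX6 IP, and 4 higher and 1 lower in polysomal RNA of control siRNA cells. Mitochondrial translation factors (13 genes, LRPPRC and SLIRP among them) gave 0 higher and 8 lower, 1 and 8, and 0 and 5 in the 3 IPs (medians -0.55, -0.49 and -0.30). In polysomal RNA with control siRNA they gave 9 higher and 4 lower (median 0.86). Assembly factors of the mitoribosome (27 genes) gave 3 and 9, 3 and 10, and 2 and 8 in the IPs (medians -0.17, -0.31 and -0.10). In polysomal RNA they gave 9 and 9 (median 0.08). Over all genes, 26.1% were called higher and 26.5% lower in the eIF4A1 IP. These shares were 24.5% and 25.8% in the eIF4A2 IP, 22.7% and 23.3% in the DDX6 IP, and 34.8% and 37% in polysomal RNA of control siRNA cells.

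The cytosolic ribosomal protein mRNAs (85 tested) had low values in the eIF4A IPs like the members, and in the gradients lay on the other side of zero. They gave 1 higher and 51 lower in the eIF4A1 IP (median -0.74), 0 and 71 in the eIF4A2 IP (-1.31) and 2 and 12 in the DDX6 IP (-0.08). In polysomal against subpolysomal RNA with control siRNA they gave 4 higher and 77 lower (median -1.38, where the members had 0.59). With CNOT1 siRNA 71 of them were lower in input RNA (median -0.62, members 0.04) and 75 in subpolysomal RNA (median -1.0003, members 0.00), and the interaction gave 51 higher and 1 lower (median 0.83, members -0.01). Over all genes 15.6% were lower in input and 19.1% in subpolysomal RNA, and the interaction gave 3.26% higher and 2.4% lower. Without the doubtful libraries the lower counts were 76 in polysomal against subpolysomal RNA with control siRNA, 74 in input and 76 in subpolysomal RNA, and the interaction gave 51 higher and 2 lower (medians -1.21, -0.62, -0.998 and 0.63). Shares of all genes called lower were then 38.4%, 21.1% and 24.3%, and the interaction gave 9.99% higher and 7.51% lower. The transcripts of the mitochondrial genome, which never meet cytosolic ribosomes, were lower in every IP for all 9 tested (medians -5.34, -3.44 and -4.99) and in polysomal RNA for all 14 tested (median -5.56 with control siRNA). In input RNA 7 of the 14 fell with CNOT1 siRNA and 0 rose (median -0.52), in the fit with all libraries (15.6% lower and 13.4% higher over all genes).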

How the data were processed

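RNA from HEK293 cells was made into stranded mRNA libraries, and 40 libraries in 12 groups were analysed (12 of the RIP, 24 of the gradient and 4 of the TNRC6 experiment). The authors aligned reads with TopHat2 to hg19 and deposited raw counts per gene symbol from HTSeq (versions and strand setting not given in the sources used here), after base calling with bcl2fastq 2.0. A further deposited table holds the authors' own IP comparisons (log2 fold change, mean log2 CPM, likelihood ratio, p and FDR) and was not used.

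Genes were kept by filterByExpr and scaled by TMM, and 1 model per experiment was fitted over all its groups with edgeR 4.0.16 (limma 3.58.1, R 4.3.3). The two-sided quasi-likelihood test with Benjamini-Hochberg adjustment over all genes tested (17474, 16776 and 14064) gave every adjusted p, and genes below 0.05 were called. Log2 fold changes are given with their SE. The interaction is the polysomal to subpolysomal fold change with CNOT1 siRNA minus that with control siRNA. Ratios of polysomal to subpolysomal libraries, matched by number, used log2 CPM with a pseudocount of 0.5 CPM. Library totals of 15353317 to 46018900 counts set the counting error, which is largest for members under 10 CPM. Each script was tested on simulated data.

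The members and lists were chosen with earlier results of these data known. Named members are, per comparison, up to 5 called members with the largest and up to 5 with the lowest log2 fold change at a mean of 10 CPM or more, then fixed members (MRPL1, MRPL10, MRPL11, MRPL12, MRPL45, MRPS7, MRPS12, MRPS18A, MRPS18B, MRPS18C, MRPS30 and MRPS36), the 5 highest and 5 lowest per kb, members called against the direction of most, and those not tested. The values of other members named in the text were seen first.

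Whether replicate numbers pair libraries was checked by correlating deviations from group means. In the RIP experiment every same-numbered pair of the groups compared correlated (r from 0.18 to 0.78). So did input (0.195 to 0.358) and subpolysomal pairs (0.586 to 0.736) of the 2 siRNAs, and the numbers were taken to pair these libraries. The main fits left this pairing out, so their SE and adjusted p treat the libraries as unpaired. The replicate block, which uses the pairing, was run only as an alternative. Deviations of polysomal and subpolysomal libraries did not pair them by number (-0.44 to 0.185 with control and -0.23 to -0.12 with CNOT1 siRNA). The group means behind these values included the polysomal libraries that went against their labels, so whether polysomal and subpolysomal libraries pair cannot be decided from them.

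Alternatives were DESeq2 1.42.0, RLE scaling, no filter, a fit of the compared libraries alone, the replicate block, each library left out, and the gradients without both polysomal libraries numbered 3. The last together with the block, the 58 members without same-strand overlap and the MANE transcript length were added after the data were seen.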

Additional observations from a re-analysis of the deposited data

Results flagged for a closer look

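The change of the polysomal to subpolysomal ratio between CNOT1 and control siRNA differed from 0 by the interaction test for 4 members: MRPS25 (0.90 on the log2 scale), MRPL10 (0.50), MRPS36 (-0.73) and MRPL14 (-0.84). Over all genes 3.26% were called higher and 2.4% lower in this test. The fit held both polysomal libraries that went against their labels, and the call of MRPL10 was lost in 10 of 23 alternatives.

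In 8 of 240 groups of 4 libraries (40 members examined), the highest or lowest library stood apart by Dixon's criterion, where chance flags about 1 in 20 groups. The libraries were, in subpolysomal RNA of control siRNA cells, replicate 4 for MRPL10 (59.0 CPM), replicate 3 for MRPS24 (3.71 CPM) and replicate 2 for MRPS6 (17.2 CPM). In input RNA they were control siRNA replicate 2 for MRPL38 (3.11 CPM), control siRNA replicate 3 for MRPL44 (46.6 CPM) and CNOT1 siRNA replicate 3 for MRPL51 (89.1 CPM). In the polysomal library labelled CNOT1 siRNA 3, whose CNOT1 level went against its label, MRPL44 (53.7 CPM) and MRPS30 (81.5 CPM) stood apart.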

How the results depend on the processing

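Of 2038 values of the 154 called results of named members under the alternatives, 1823 kept direction and call, 215 kept direction and lost the call, and 0 reversed. With single libraries left out, the count of called members ranged from 22 to 35 in the DDX6 IP. It ranged from 1 to 2 for eIF4A2 against eIF4A1 and from 21 to 44 for eIF4A2 against DDX6. With CNOT1 siRNA it ranged from 4 to 10 in input, 9 to 19 in subpolysomal and 0 to 8 in polysomal RNA. For the interaction it ranged from 2 to 13. The share of all genes called changed between these fits too. In input it was 17.2% to 20.7%, against 29% with all libraries. The members' median ranged from -0.94 to -0.60 in the eIF4A1 IP, -0.50 to -0.18 in the DDX6 IP, -0.42 to -0.098 for eIF4A2 against eIF4A1, -0.83 to -0.48 for eIF4A2 against DDX6, 0.19 to 0.64 for DDX6 against eIF4A1, -0.036 to 0.051 for CNOT1 siRNA in subpolysomal RNA and -0.21 to 0.022 for TNRC6A/B siRNA. The MRPL median minus the MRPS median ranged from -0.030 to 0.015 in the DDX6 IP, -0.19 to -0.13 for eIF4A2 against DDX6, 0.025 to 0.23 in polysomal over subpolysomal RNA with CNOT1 siRNA, 0.022 to 0.098 for CNOT1 siRNA in subpolysomal RNA and -0.075 to 0.063 for TNRC6A/B siRNA.

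For eIF4A2 against eIF4A1, the count was 24 with the replicate block (7.12% of all genes higher and 8.7% lower) and 3 with DESeq2. It was 8 without a filter and 0 of the 58 members without same-strand overlap. For DDX6 against eIF4A1 it was 36 with the block (6.08% of all genes higher and 3.82% lower), 12 with DESeq2 and 4 without a filter. For CNOT1 siRNA in input it was 44 in a fit of the compared libraries (61% of all genes called). Without both polysomal libraries numbered 3 it was 25 (40.6%), and 30 with the block added (46%). In subpolysomal RNA it was 11 without a filter, 8 in the compared libraries and 10 of the 58 members. In polysomal RNA it was 20 without both libraries (17.1% of all genes higher and 14.6% lower) and 29 with the block added. For the interaction it was 7 with the block, 7 with DESeq2 and 1 in the compared libraries. Without both libraries it was 20 (9.99% of all genes higher and 7.51% lower), and 27 with the block added. For TNRC6A/B siRNA the block gave 2, where the numbers were not taken as a pairing, since there are 2 pairs (r = 0.86). In the DDX6 IP, the MRPL median minus the MRPS median was -0.031 without a filter and -0.081 by the subunit of residence. Shares of all genes called changed between these fits too and are not given beside every count, so a changed count alone is no result about the members. The cause of these changes was not tested. The replicate block moved no other total of called members by more than 1.5 times, while the members called higher went from 6 to 11 in the DDX6 IP and from 2 to 4 in the eIF4A2 IP.

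Counting error limits most the members with a mean under 10 CPM in some group (MRPL12, MRPL30, MRPL38, MRPL41, MRPL46, MRPL53, MRPL54, MRPS24 and MRPS31).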
